A study of Mus musculus with 6 samples.

Results

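The genes described here are 10 genes of fatty acid oxidation and its control, namely Cd36, Fabp3, Cpt1a, Cpt1b, Cpt2, Acadvl, Acadm, Hadha, Ppara and Ppargc1a. They were chosen as the rows of the raw count table whose gene symbol is on that list, and all 10 were found among 30619 rows. Poly(A) RNA of embryonic mouse hearts of stage E12.5 was sequenced, with 3 libraries labelled as a conditional knockout (CKO) of Trim28 and 3 from control embryos. The genotype label of the CKO libraries reads TRIM28 knockdown and that of the controls WT, and each library holds mixed embryonic cardiac cells. TRIM28 is a co-repressor that zinc finger proteins bring to DNA, and the series concerns its part in trabeculation and compaction of the ventricular wall. The sources used here do not name the Cre driver, the deleted exons, the mouse strain or how many hearts went into a library. Whether the libraries stem from different embryos is not labelled either, and a p-value then covers only how far these libraries lie apart.

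Long-chain fatty acids enter a cell with the help of the surface receptor CD36 and are carried in the cytosol of heart muscle by FABP3. CPT1 couples them to carnitine at the outer mitochondrial membrane, CPT2 releases them as acyl-CoA inside, and a cycle of dehydrogenases, hydratases and thiolases then shortens the chain. The nuclear receptor PPAR alpha, encoded by Ppara, and its co-activator PGC-1 alpha, encoded by Ppargc1a, switch on many of these genes. The embryonic heart is known to draw mainly on glucose and lactate, and fatty acid oxidation becomes its main source of energy after birth.

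None of the 10 genes changed between CKO and control hearts at an adjusted p under 0.05, while 4.22% of the 17557 tested genes did (edgeR quasi-likelihood test with Benjamini-Hochberg adjustment, 3.08% higher and 1.14% lower in CKO). At an unadjusted p under 0.05 there were 3, with Fabp3 higher and Cd36 and Ppargc1a lower, against 17.3% of all tested genes. DESeq2 called 0 of the 10 where it called 5.96% of all genes, and limma-voom called 1, Fabp3, where it called 2.82% of all genes as higher. The median log2 fold change of the 10 genes was -0.042, and that of all tested genes was 0.0035.

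The libraries held between 34400841 and 39763233 counts. Trim28 (chromosome 7, 12999114 to 13031035) stood at 172, 314 and 165 CPM (counts scaled to library size with TMM factors) in CKO libraries 1, 2 and 3, against 305, 391 and 443 CPM in control libraries 1, 2 and 3. The library labelled CKO 2 lay inside the control range, and the group difference did not pass the test (log2 fold change -0.81, SE 0.34, adjusted p = 0.35). Counts over the whole gene include exons that a deletion leaves in place. Limma-voom (-0.86, adjusted p = 0.017) and the non-robust edgeR fit (-0.81, adjusted p = 0.031) called Trim28 lower, and without CKO 2 it was at -1.17 (adjusted p = 0.072). A ribosomal RNA row took 0.563% to 0.79% of the counts in CKO and 0.126% to 0.522% in controls, so its share and the group cannot be told apart. The muscle markers of the labelled tissue were abundant, with a sum over 11 genes of 25090 to 25800 CPM in CKO and 23140 to 25130 CPM in controls.

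Among themselves the 10 genes covered a wide range of levels. Per kilobase of annotated exon, Fabp3 was the highest in each of the 6 libraries, at 226 to 430 CPM per kb. Acadm (43.3 to 49.2 CPM per kb) and Hadha (44.1 to 47.6 CPM per kb) followed, and their ranges overlapped. Cd36 came next at 22.7 to 28.9 CPM per kb, then Cpt2 at 21.0 to 27.2 and Acadvl at 20.1 to 23.3 CPM per kb, whose ranges overlapped as well. Ppargc1a was at 12.9 to 15.6 and Cpt1a at 9.23 to 10.5 CPM per kb. Cpt1b (0.578 to 1.14 CPM per kb) and Ppara (0.309 to 0.815 CPM per kb) were the lowest, again with overlapping ranges. With the length of the longest transcript in place of all exons, Hadha stood above Acadm, Acadvl above Cpt2 and Cpt1a above Ppargc1a in the order of the means, and the other positions were as before. The co-activator gene Ppargc1a was thus measured far above the receptor gene Ppara, at 14.8 against 0.647 CPM per kb on average over the 6 libraries.

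**Figure D1:**
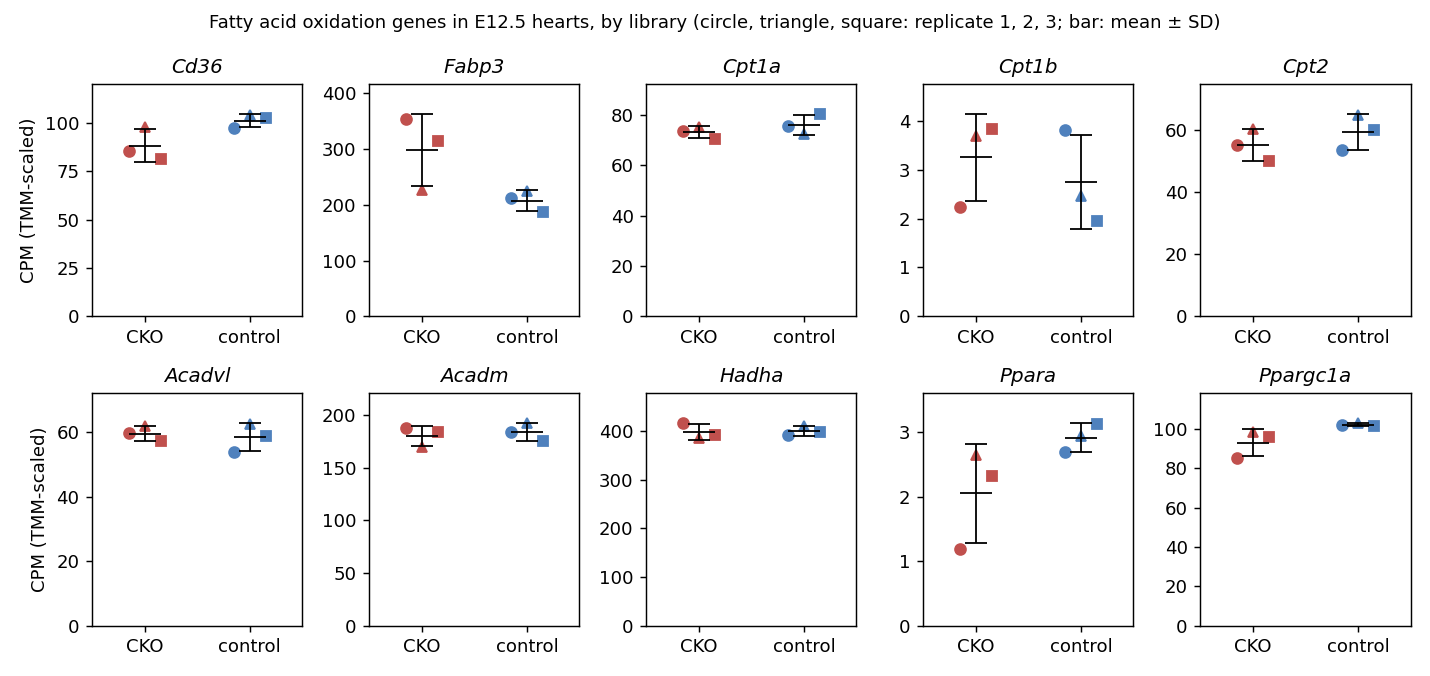
TMM-scaled CPM of each gene (vertical axis, from 0) in the CKO and control libraries, with circles, triangles and squares for replicates 1, 2 and 3 and bars for mean ± SD (n = 3). Fabp3 is above the controls in each CKO library, from 228 CPM in CKO 2 to 354 CPM in CKO 1, while Hadha, Acadm and Acadvl lie at the same height in both groups.

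Uptake and carriage are represented by Fabp3 and Cd36. Fabp3, the fatty acid binding protein of heart and skeletal muscle (chromosome 4, 130308595 to 130315463), was measured at 354, 228 and 314 CPM in CKO libraries 1, 2 and 3, against 212, 224 and 186 CPM in control libraries 1, 2 and 3. All CKO values lay above all control values, as they did in 11.5% of all tested genes, but CKO 2 exceeded the highest control by only a few CPM. The means were 299 ± 64.6 CPM in CKO and 207 ± 19.2 CPM in controls (SD, n = 3 each). Fabp3 was not called, with a log2 fold change of 0.53 (SE 0.19, 95% confidence interval 0.0077 to 1.04, adjusted p = 0.28). Without the library labelled CKO 2 the log2 fold change was 0.69 and the gene was called (adjusted p = 4.8e-06, with 5.54% of genes called higher in that fit). Without CKO 1 it was 0.38 (adjusted p = 0.46) and without CKO 3 it was 0.49 (adjusted p = 0.54). The gene was not called when any library other than CKO 2 was left out. Limma-voom (0.51, adjusted p = 0.027) and the non-robust edgeR fit (0.53, adjusted p = 0.024, with 2.86% of genes called higher) called it with all 6 libraries. With the ribosomal RNA share as a covariate it was at 0.39 (adjusted p = 0.86).

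In CKO 2, Trim28 thus lay inside the control range and Fabp3 only just above it. This did not hold for every gene. Lpl, described below, had its highest value in CKO 2, and Hadha and Acadm lay below all controls there. Whether these positions are linked was not tested. Set against the sum of the 11 muscle markers, Fabp3 came to 1.41%, 0.907% and 1.22% in CKO libraries 1, 2 and 3, and to 0.87%, 0.891% and 0.806% in control libraries 1, 2 and 3. The groups did not overlap on this scale either. Of those markers, Myh6 and Myl7 were called higher and none lower. Fabp3 shares 81 and 80 exonic bases with the opposite-strand genes Zcchc17 and Gm10570, which were not called and reached at most 33.8 and 0.935 CPM in a library. In bulk tissue, fewer cells of a type and less RNA per cell cannot be told apart.

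Cd36 (chromosome 5, 17781690 to 17888801), which encodes the fatty acid receptor of muscle, endothelium and macrophages, was measured at 85.3, 98.1 and 81.5 CPM in CKO libraries 1, 2 and 3. The control libraries held 97.2, 104 and 102 CPM. CKO 1 and CKO 3 lay below all controls, and CKO 2 lay inside their range. The means were 88.3 ± 8.71 CPM in CKO and 101 ± 3.48 CPM in controls (SD, n = 3 each), and the log2 fold change of -0.20 (SE 0.064) was not called (adjusted p = 0.098). Without CKO 2 the log2 fold change was -0.28 and the gene was called (adjusted p = 0.0016, with 3.13% of genes called lower). Without CKO 1 it was -0.18 (adjusted p = 0.19) and without CKO 3 it was -0.14 (adjusted p = 0.42), both without a call. Cd36 was also called when no filter on low counts was used (-0.20, adjusted p = 0.027, with 1.25% of genes called lower). With the ribosomal RNA share as a covariate it was at -0.15 (adjusted p = 0.77).

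Endothelial and endocardial markers, some of them lower in CKO, were read beside Cd36. Of the 11 tested, Tek (-0.36), Plvap (-0.35), Cdh5 (-0.30) and Kdr (-0.26) were called lower on the log2 scale and none higher, and their sum was 1453 to 1654 CPM in CKO and 1732 to 1805 CPM in controls. None of the 11 was at 0. Relative to that sum, Cd36 stood at 5.77%, 5.93% and 5.61% in CKO libraries 1, 2 and 3, against 5.61%, 5.75% and 5.79% in control libraries 1, 2 and 3. On this scale the groups overlapped, at 5.77 ± 0.162% in CKO and 5.72 ± 0.0939% in controls (SD, n = 3 each). Macrophage markers went the other way, with C1qa, C1qb and C1qc called higher among 10 and a sum of 117 to 132 CPM in CKO and 97.6 to 104 CPM in controls. Relative to that sum, Cd36 stood at 66.3%, 83.6% and 61.8% in CKO libraries 1, 2 and 3, against 93.4%, 106% and 98.3% in control libraries 1, 2 and 3, with no overlap. The muscle markers had a sum of 25090 to 25800 CPM in CKO and 23140 to 25130 CPM in controls. Cd36 was not set against the muscle sum, and the part of these cell types in its level was not tested.

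The carnitine shuttle genes did not pass the test. Cpt1a (chromosome 19, 3322334 to 3385733), the form of CPT1 that dominates in liver and in the fetal heart, was at 73.8, 75.3 and 70.5 CPM in CKO, against 75.6, 72.3 and 80.4 CPM in controls. These values overlapped, and the fold of CKO over control was 0.962 with a 95% confidence interval of 0.885 to 1.05 (adjusted p = 0.71). Cpt1b (chromosome 15, 89416405 to 89425863), the form of adult heart and skeletal muscle, was at 2.24, 3.69 and 3.84 CPM in CKO, against 3.81, 2.47 and 1.95 CPM in controls.

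Cpt1b thus varied as much within each group as between them. Its fold of CKO over control was 1.19 (95% confidence interval 0.787 to 1.78, adjusted p = 0.74), and with 73 to 152 counts in a library a change of the size seen for Fabp3 would lie inside that interval. Of its 3372 exonic bases, 2744 lie in Gm44502 too, a gene on the same strand with no row under that symbol in the raw counts. How reads in the shared bases were counted is not given, and any left out would lower the level of Cpt1b and raise the ratio below. Per kilobase of exon, Cpt1a exceeded Cpt1b 14.6-, 9.01- and 8.11-fold in CKO libraries 1, 2 and 3, and 8.75-, 12.9- and 18.2-fold in control libraries 1, 2 and 3. The measured level of the liver form was the higher one in each of the 6 libraries, and the ratios of the groups overlapped (10.6 ± 3.5 in CKO and 13.3 ± 4.73 in controls, SD, n = 3 each). Cpt2 (chromosome 4, 107903981 to 107923610) was at 55.2, 60.3 and 50.1 CPM in CKO and at 53.5, 65.0 and 59.9 CPM in controls. Those values overlapped as well, with a fold of 0.929 (95% confidence interval 0.828 to 1.04, adjusted p = 0.55).

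**Figure D2:**
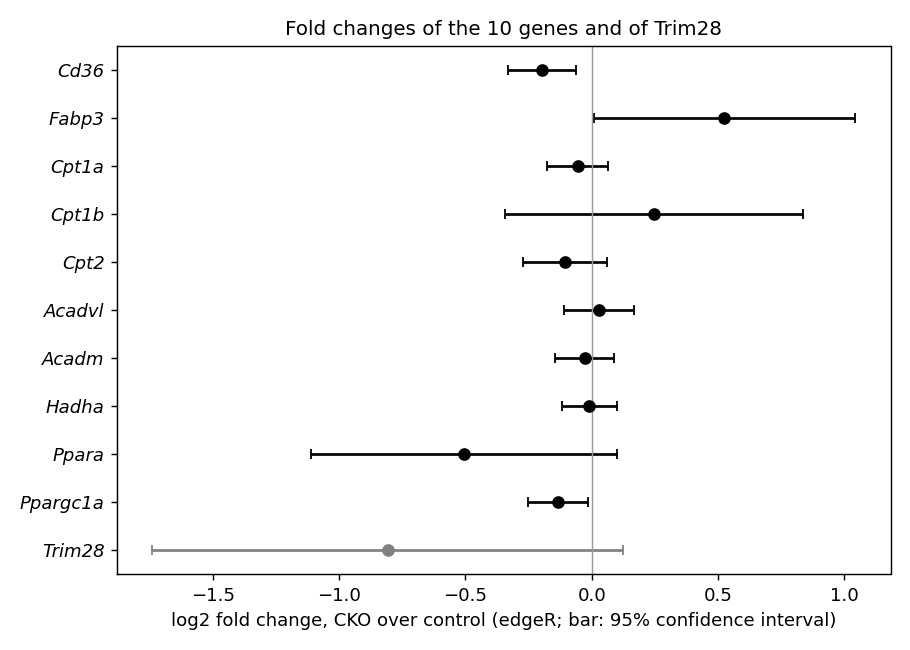
Log2 fold changes of CKO over control from edgeR (horizontal axis) with 95% confidence intervals for the 10 genes, and for Trim28 in grey. The intervals of Hadha, Acadm, Acadvl and Cpt1a are narrow and include 0, those of Cpt1b and Ppara are wide, and those of Cd36, Ppargc1a and Fabp3 do not include 0 before adjustment.

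Of the chain-shortening cycle, the enzyme genes Hadha, Acadm and Acadvl were measured at like levels in both groups. Over the whole cycle, 5 of 16 tested genes had an unadjusted p under 0.05, against 17.3% of all tested genes. On the log2 scale Acadl (0.20) and Eci2 (0.16) were higher, and Eci1 (-0.29), Acaa2 (-0.22) and Etfa (-0.13) were lower. Only Eci1 was called. Hadha (chromosome 5, 30118304 to 30155162) encodes the alpha subunit of the trifunctional protein, which carries out the later steps on long chains. It was measured at 416, 385 and 393 CPM in CKO libraries 1, 2 and 3, against 392, 411 and 398 CPM in control libraries 1, 2 and 3. The controls lay within the span of the CKO values, and the fold of CKO over control was 0.994 (95% confidence interval 0.921 to 1.07, adjusted p = 0.96). Hadhb, which encodes the beta subunit, was at 257, 233 and 244 CPM in CKO and 242, 255 and 231 CPM in controls.

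Acadm (chromosome 3, 153922357 to 153944632), the medium-chain acyl-CoA dehydrogenase gene, was at 188, 169 and 184 CPM in CKO, against 184, 192 and 175 CPM in controls. The fold was 0.981 (95% confidence interval 0.904 to 1.06, adjusted p = 0.87). Acadvl (chromosome 11, 70010183 to 70015411), the very long-chain dehydrogenase gene, was at 59.7, 61.8 and 57.1 CPM in CKO, against 53.9, 62.5 and 58.7 CPM in controls. Its fold was 1.02 (95% confidence interval 0.926 to 1.12, adjusted p = 0.89), and it shares 1151 exonic bases with the opposite-strand gene Dvl2, which was not called either. For these 3 enzymes the groups overlapped, and the intervals of the fold reached no lower than 0.904 and no higher than 1.12.

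The regulators Ppargc1a and Ppara had all their CKO values below all their control values, but neither was called. Ppargc1a (chromosome 5, 51454250 to 51567726) was at 85.2, 98.2 and 95.7 CPM in CKO, against 102, 103 and 101 CPM in controls. The control values were tightly grouped (102 ± 0.726 CPM) and those of CKO spread further (93.0 ± 6.91 CPM, SD, n = 3 each). On the log2 scale the difference was -0.13 (SE 0.058, adjusted p = 0.22). Without CKO 1, the lowest library, it was -0.081 (adjusted p = 0.49), and without CKO 2 it was -0.17 (adjusted p = 0.062).

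Ppara (chromosome 15, 85734983 to 85802819) was at 1.19, 2.64 and 2.32 CPM in CKO, against 2.69, 2.93 and 3.13 CPM in controls. CKO 1 was far below the rest, and CKO 2 was just below the lowest control. The log2 fold change of -0.51 (SE 0.29, 95% confidence interval -1.11 to 0.099, adjusted p = 0.40) rested on 43 to 117 counts in a library. It was -0.24 without CKO 1 (adjusted p = 0.74) and -0.73 without CKO 2 (adjusted p = 0.17). Of the 10 genes, 2 had all CKO values below the controls, as had 10.6% of all tested genes, and 1 had them all above.

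**Figure D3:**
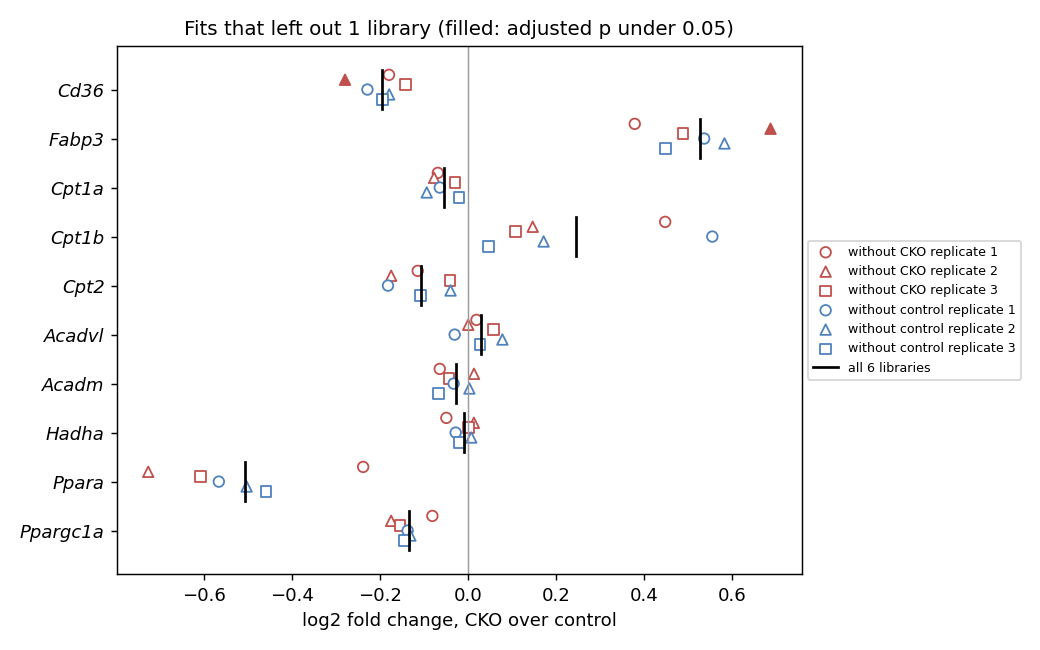
Log2 fold changes of CKO over control (horizontal axis) when 1 library was left out (symbols, filled where the adjusted p was under 0.05) and with all 6 libraries (black lines). Filled symbols appear for Fabp3 (0.69) and Cd36 (-0.28) without CKO replicate 2 and nowhere else.

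The members' neighbours in fatty acid use were taken from 10 lists by role, which hold 89 further genes, and 87 of these were tested. Of the 87, 3 were higher and 3 were lower in CKO, against 3.08% and 1.14% of all tested genes, and their median log2 fold change was 0.0050. At an unadjusted p under 0.05 there were 27 of the 87, 15 higher and 12 lower, against 17.3% of all tested genes. All CKO values lay above all control values in 11 and below them in 16, against 11.5% and 10.6% of all tested genes. Without CKO 2, 8 of the 87 were called higher and 9 lower, against 5.54% and 3.13% of all genes in that fit. In uptake and carriage, 2 of 9 further genes were higher and none lower. Vldlr, a receptor for triglyceride-rich lipoproteins, was at 157, 157 and 164 CPM in CKO and 109, 127 and 110 CPM in controls (log2 fold change 0.46, SE 0.060, adjusted p = 0.00016). Lpl, the lipase that frees fatty acids from lipoproteins, was at 284, 295 and 273 CPM in CKO and 216, 229 and 223 CPM in controls (0.35, SE 0.053, adjusted p = 0.00059). In both genes every CKO library, CKO 2 included, lay above every control, and both stayed called whichever library was omitted.

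In the cycle itself, 1 of 13 further genes was lower and none higher. Eci1, the isomerase that prepares unsaturated chains, was at 57.2, 58.3 and 52.3 CPM in CKO and 68.1, 69.6 and 66.8 CPM in controls (-0.29, SE 0.062, adjusted p = 0.010). Its call was lost without CKO 3 (adjusted p = 0.093), control 1 (0.057) or control 2 (0.062). The next smallest adjusted p was that of the thiolase gene Acaa2 (-0.22, adjusted p = 0.058). Of 4 genes of malonyl-CoA control, which limits CPT1, the acetyl-CoA carboxylase gene Acaca was lower, at 58.6, 63.5 and 58.3 CPM in CKO and 76.0, 71.2 and 71.9 CPM in controls (-0.28, SE 0.060, adjusted p = 0.0096). Acaca was not called without CKO 3 (adjusted p = 0.076) or control 1 (0.082). The others of this list were not called and went both ways. Acacb, the other acetyl-CoA carboxylase gene, was at 0.11 (adjusted p = 0.34), Mlycd at -0.21 (0.32) and Acly at 0.017 (0.92).

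PPAR target genes did not move one way. Of 16 tested targets, those among the 10 genes included, 7 had a positive log2 fold change and 9 a negative one. Of 9 tested targets that are not among the 10 genes, Pdk4 was lower and none was higher. Pdk4, the kinase that restrains pyruvate dehydrogenase, was at 31.3, 37.2 and 28.0 CPM in CKO and 37.7, 47.6 and 41.4 CPM in controls (-0.39, SE 0.11, adjusted p = 0.049). Its call was lost without CKO 1 (adjusted p = 0.16), CKO 3 (0.21), control 2 (0.21) or control 3 (0.14), while without CKO 2 it was at -0.51 (adjusted p = 0.000675). Nor was Pdk4 called with RLE factors (adjusted p = 0.052), upper-quartile factors (0.0503), the non-robust edgeR fit (0.057) or the stricter low-count filter of 1 CPM (0.053). Ucp3 and Plin5 were too low to be tested, with at most 5 and 18 counts in a library.

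Ketone body use held 1 called gene of 5. Bdh1, a mitochondrial dehydrogenase of ketone bodies, was at 24.9, 16.6 and 22.1 CPM in CKO and 13.3, 12.6 and 12.1 CPM in controls (0.74, SE 0.13, adjusted p = 0.0023). CKO 2 was the CKO library nearest to the controls for this gene, and Bdh1 stayed called whichever library was omitted. With the ribosomal RNA share as a covariate, Vldlr alone of the 6 called genes was called, and the adjusted p of Lpl was 0.10, of Acaca 0.21, of Eci1 0.29, of Bdh1 0.35 and of Pdk4 0.71. With a covariate for Y-linked transcripts, Eci1 (adjusted p = 0.095) and Pdk4 (0.31) lost their call. The remaining lists held no call. Among 22 further regulators the smallest adjusted p were those of Rxra (-0.18, adjusted p = 0.11), the partner receptor of PPAR alpha, and of the AMP kinase gene Prkaa2 (-0.16, adjusted p = 0.11). Acyl-CoA activation (7 genes, led by Acsl3 at -0.19, adjusted p = 0.059, and Acsl5 at -0.17, adjusted p = 0.21) and the other 4 carnitine shuttle genes (Cpt1c at 0.24, adjusted p = 0.26, and Slc25a20 at -0.091, adjusted p = 0.56) had none either. The same held for peroxisomal oxidation (9 genes, Hsd17b4 at -0.17, adjusted p = 0.072, and Acaa1a at 0.18, adjusted p = 0.077) and for lipid droplets and lipolysis (9 tested genes, G0s2 at 0.29, adjusted p = 0.15, and Plin2 at 0.16, adjusted p = 0.16).

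**Figure D4:**
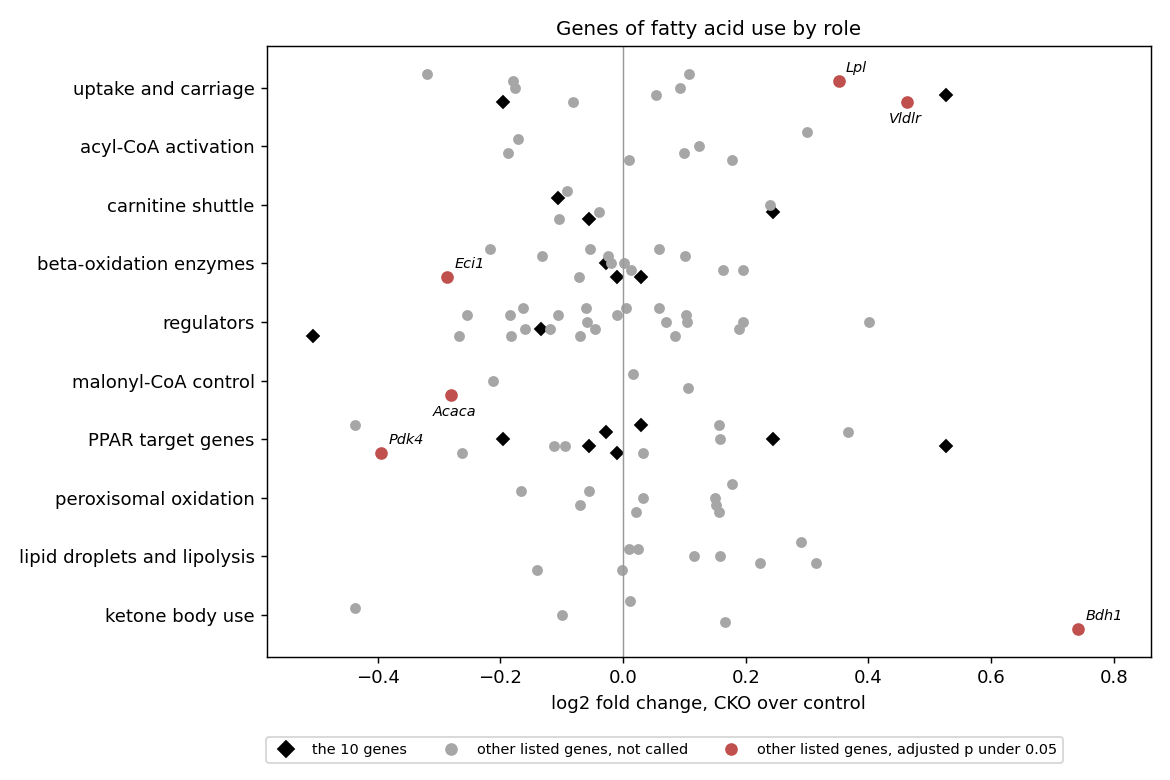
Log2 fold changes of CKO over control (horizontal axis) for the tested genes of the 10 role lists, some of which share genes, with diamonds for the 10 genes described here and red circles for other genes at an adjusted p under 0.05. The 6 red genes lie on both sides of 0, with Bdh1, Vldlr and Lpl above and Pdk4, Eci1 and Acaca below.

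The remaining cell types were read from their own marker lists. Red cell markers had no call among 10 and a sum of 1159 to 1298 CPM in CKO and 1285 to 2215 CPM in controls. Epicardial markers had none among 7 (346 to 390 CPM in CKO and 364 to 383 CPM in controls). Of 8 cushion and fibroblast markers Postn was lower (-0.29), with a sum of 4227 to 5232 CPM in CKO and 4009 to 4814 CPM in controls. Of 6 smooth muscle markers Acta2 (0.65), Myh11 (1.62) and Cnn1 (0.47) were higher, with a sum of 2312 to 2793 CPM in CKO and 1707 to 1741 CPM in controls. Liver and fat, which use or store fatty acids, were nearly absent, with sums of at most 2.43 CPM in CKO and 2.59 CPM in controls for 6 hepatocyte markers, and 0.378 CPM in CKO and 0.251 CPM in controls for 3 adipocyte markers. The sums leave out Fgb and Serpina1a of the first list and Cidec, Lep and Cfd of the second. The raw counts hold no row under these symbols. The part of these cell types in the results was not tested.

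PPAR alpha with its partner RXR binds a direct repeat of the motif AGGTCA with 1 base between the copies, and related receptors bind the single motif. RefSeq promoters (GRCm38.p6, 250 bases before to 50 after the start site) were on hand for 9 of the 10 genes, Cpt1b being the exception. The motif AGGTCA on either strand was found in 4 of these 9 promoters and in 16.3% of all 32851 promoters. The direct repeat was in none of the 9 and in 0.0396% of all promoters, and the motif preceded by TCA, known for estrogen-related receptors, was in none of the 9 and in 0.423%. Only exact matches were searched, and with shares this low over all promoters, absence from the 9 says little. The 4 stretches are shown because they belong to genes of uptake, shuttle and cycle, with the motif or its reverse complement in capitals. They are read along the gene's strand, with the Cd36 stretch at chr5:17836107-17836136 (minus strand), Cpt1a at chr19:3323195-3323224 (plus), Acadvl at chr11:70015498-70015527 (minus) and Acadm at chr3:153944875-153944893 (minus).
Cd36: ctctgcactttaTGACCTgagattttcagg
Cpt1a: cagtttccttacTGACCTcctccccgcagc
Acadvl: atggatcaccctAGGTCAggtagaatacag
Acadm: gTGACCTtcgggctccggt
The motif starts 228, 94, 87 and 249 bases before the start sites used for Cd36, Cpt1a, Acadvl and Acadm. The windows of Cd36 (chr5:17835847-17836146) and Cpt1a (chr19:3323051-3323350) lie inside the annotated spans of their genes. Other start sites of the genes were not searched. For 8 of the 9 promoters, the last 20 bases lay in a transcript of the gene. None of the 10 genes was called, with or without the motif, so the calls say nothing about it. The promoter of Fabp3 was among those without such letters in the window.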

How the data were processed

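The authors deposited raw counts for each gene symbol in 6 libraries, on the mm10 build per the submitters' processing notes. How reads were aligned and counted, and whether strand was used, is not given in the sources used here. Per the labels' protocols, a NEBNext Ultra RNA kit and an Illumina HiSeq platform were used. Groups came from the sample titles. In 2017 symbols, altered characters were restored from GENCODE M21, which also gave positions and exon lengths. All 10 genes passed filterByExpr (minimum count 10, total 15), which kept 17557 genes and removed 0.0756% of the counts.

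Counts were tested with edgeR 4.0.16 in R 4.3.3 (TMM factors, robust quasi-likelihood fit on group, two-sided), with Benjamini-Hochberg adjustment over all tested genes and a call at an adjusted p under 0.05. Every p in the text comes from this test unless another is named. Log2 fold changes are CKO over control, SE is the fold change over the root of F, and confidence intervals are at 95%. DESeq2 1.42.0 and limma 3.58.1 (voom) were alternatives, beside other scalings, filters, covariates, a replicate block and leaving out each library. The procedure was checked on simulated counts. Levels per kb used the union of annotated exons. The named genes were Trim28, the 10 genes, and in each list the called genes or, where none was called, those with the 2 smallest adjusted p. For some lists the next gene by adjusted p is also named, chosen after its values were seen, as were Hadhb, Acadl, Eci2, Etfa, Acacb, Mlycd and Acly. The ratios to marker sums were also added after the values were seen. Members and lists were chosen with earlier results of these data known.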

Additional observations from a re-analysis of the deposited data

How the results depend on the processing

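Between 0 and 1 of the 10 genes was called higher and between 0 and 1 lower when 1 library was left out, with Fabp3 and Cd36 called without CKO replicate 2. Fabp3 made 1 call higher under limma-voom and 1 under the non-robust edgeR fit, and Cd36 made 1 lower without a filter. Of all genes, 540 were higher and 201 lower, 820 and 383 without a filter, 57 and 3 with the ribosomal RNA covariate, 278 and 43 with the Y-linked covariate, and 268 to 1008 and 41 to 569 without 1 library; DESeq2 called 314 lower. Of the 87 further genes, 3 were higher and 3 lower, against 1 and 0 with the ribosomal RNA covariate, 3 to 8 and 0 to 9 without 1 library, and 1 (Y-linked covariate), 6 (DESeq2), 7 (no scaling factors) or 7 (no filter) lower. The median log2 fold change of the 10 genes was -0.0014 with the Y-linked covariate and -0.067 to -0.019 without 1 library. The mean ratio of Cpt1a to Cpt1b was 11.9, 18.1 with the longest transcripts and 10.7 to 12.7 without 1 library. Signs turned in 5 of the 10 genes, none of them called in these fits. Without 1 library, Acadm ranged from -0.068 to 0.013, Acadvl from -0.031 to 0.078 and Hadha from -0.049 to 0.013. The turns were Cpt1b (-0.23, against 0.25) and Cpt2 (0.00044) with the ribosomal RNA covariate, Acadm (0.023) and Hadha (0.021) with the Y-linked covariate, Acadm without CKO replicate 2 (0.013) or control replicate 2 (0.0030), Hadha without CKO replicate 2 (0.013), CKO replicate 3 (0.00047) or control replicate 2 (0.0072), and Acadvl without control replicate 1. The cause was not tested. Same-numbered libraries did not deviate together over all genes (r = 0.012, 0.0064 and 0.0046 for numbers 1, 2 and 3). Pairs with different numbers lay between -0.053 and 0.047. These values show no pairing by number, but they cannot exclude one that affects few genes. With the replicate number as a block, 535 genes were higher and 189 lower, and 0 of the 10 were called. Cpt1b and Ppara had the fewest counts of the 10 genes, 73 to 152 and 43 to 117 in a library.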
